A study of Drosophila melanogaster with 2 samples.

Results

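Divergent promoters belong to neighbouring genes that are read away from each other, and 316 reproducible ChIP-seq peaks of GFP-tagged CG7745 lay at start sites of genes in such pairs. They are the peaks of the irreproducible discovery rate (IDR) set whose summit, the base of highest signal, lay within 500 bp of a protein-coding transcription start site (TSS) of a gene with a head-to-head partner. A head-to-head partner is a protein-coding gene on the opposite strand whose TSS lies at most 1000 bp away, with the minus-strand TSS to the left. The 316 peaks made up 43.1% (exact 95% interval 39.5 to 46.8%) of the 733 IDR peaks at promoters and 16.9% (15.2 to 18.6%) of all 1874 IDR peaks. They were chosen by position and by membership of the IDR set. That set held 316 of the 3304 pooled peaks at divergent promoters (9.56%) and 1874 of all 30000 pooled peaks (6.25%). Of pooled promoter peaks, the divergent share was 43.5% just below the IDR set, up to rank 5000, and 38.7% over ranks 20001 to 30000. The 6.25% covers peaks of all positions, so the higher 9.56% is not shown to be particular to divergent promoters. The rule takes any TSS of such a gene, so 262 of the 316 lay within 500 bp of the paired start sites themselves, and 54 lay at another TSS, as at px, a wing vein gene, where the pair was 47754 bp away. The 417 other promoter peaks are those whose genes have no such partner.

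The data come from whole Drosophila melanogaster embryos 0 to 12 hours old of 1 transgenic line whose flies stably make CG7745 joined to GFP at the C-terminal end. ChIP-seq was used, in which protein-bound DNA is recovered with an antibody and sequenced, and the description in the labels names an anti-GFP antibody while the antibody field names CG7745. Both libraries, biological replicates 2 and 3, belong to 1 group (n = 2), no second condition is labelled, and both were called against the same control alignment. Read depth is unknown, so intervals cover the counting of peaks, pairs or genes only, and the deposited signal has no stated scale and is used within a list.

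Head-to-head gene arrangement is common in the compact fly genome. The stretch between such genes serves as the upstream region of both, so that bound protein there lies close to 2 transcription start sites with opposite direction. Many genes in such pairs carry out general cell functions such as translation, RNA processing and DNA repair, while many developmental regulators stand alone with long regulatory regions. Housekeeping promoters of the fly often carry elements such as the DRE, which the factor Dref binds, and cytoplasmic ribosomal protein genes start transcription at a pyrimidine-rich TCT initiator.

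The 6-base palindrome TAATTA had, of the 6-mers found in at least 30 members, the highest ratio of its share at members to that at weaker pooled peaks of divergent promoters, so its sites at the strongest members are shown first. Each line gives 26 bases of the plus strand of Release 6 (dm6), with the copy of TAATTA nearest to the summit in capitals, named for the gene with the nearest TSS and ordered by peak signal. They come from 9 of the 25 strongest members, and the mrva and her lines hold another copy, in lower case.
mrva (chr3L:7328794-7328819): taattaacgtTAATTAcgcatataca
CG9917 (chrX:16323133-16323158): aaaattaattTAATTAggaaatcact
Ifrd1 (chr2L:2874427-2874452): ataatgcaaaTAATTAagcacttaat
Arl5 (chr3L:8299739-8299764): gttgataattTAATTAacagagtttt
Patsas (chr2L:12103385-12103410): cacatactggTAATTAagacttttct
her (chr2L:16677223-16677248): aacaaacatgTAATTAaaattaatta
CG44838 (chr3L:9461325-9461350): attgatttccTAATTAagtttataat
Trf4-1 (chrX:8561542-8561567): ccactgcaatTAATTActccgactaa
Tcs5 (chr3L:5139465-5139490): gtttagaaaaTAATTAtcgactgcta
At mrva the centre of the palindrome lay 2.5 bp from the summit, at Patsas -2.5 bp, at Trf4-1 -5.5 bp and at Arl5 7.5 bp (positive values lie to the right on the plus strand). At CG9917 and Ifrd1 it lay -15.5 and 15.5 bp away, at Tcs5 -25.5 bp, and at her and CG44838 45.5 bp. The bases flanking the palindrome differed between these sites.

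Different summit positions are shown by the whole stretch between the paired start sites at members with a gap of at most 300 bp. The sequences are of the plus strand of Release 6 (dm6), and capitals mark AATTAA or its complement TTAATT.
Art3 and mRpS10 (chr3R:15229409-15229664): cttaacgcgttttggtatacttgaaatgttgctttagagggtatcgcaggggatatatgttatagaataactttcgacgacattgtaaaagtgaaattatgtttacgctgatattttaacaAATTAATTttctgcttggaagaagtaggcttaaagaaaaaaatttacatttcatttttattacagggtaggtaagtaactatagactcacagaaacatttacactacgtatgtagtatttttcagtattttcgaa
fry and CG16717 (chr3L:9679104-9679200): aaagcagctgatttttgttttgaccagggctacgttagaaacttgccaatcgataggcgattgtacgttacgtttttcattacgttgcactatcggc
CG9917 and CG32579 (chrX:16323232-16323285): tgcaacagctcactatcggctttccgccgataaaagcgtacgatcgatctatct
At Art3, an arginine methyltransferase gene, and mRpS10, of the mitochondrial ribosome, the summit was base 130 of the stretch, 130 and 127 bp upstream of the paired TSS, and the capital letters lay next to it. At fry, a regulator of NDR kinases, and CG16717 the summit was base 5, beside the fry TSS. At CG9917 and CG32579 the summit lay outside the stretch, 70 bp downstream of the CG9917 TSS.

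The strongest members follow in both libraries. The IDR set rests on the agreement of these same libraries and the members were ranked by their pooled signal, so high ranks in both come with the choice. The peak at chic, the profilin gene of actin assembly, had a signal of 824 in replicate 2 and 1295 in replicate 3, at rank 5 and rank 6 of those lists. The peak shared by mRpL52, a mitochondrial ribosomal protein gene, and CG12107 had 753 in replicate 2 and 1313 in replicate 3. The chic summit lay in an intron 329 bp from the TSS paired with eIF4A (a translation initiation helicase) and -208 bp from the nearest chic TSS (negative values are upstream), whereas the mRpL52 and CG12107 starts lie 50 bp apart and the summit was 12 bp downstream of CG12107. The peak at mrva and mus312, a scaffold of DNA repair nucleases, had 602 in replicate 2 and 1168 in replicate 3. The peak at CG9917 and CG32579 had 570 and 836 in replicates 2 and 3, and that at Ifrd1 and CG8814 had 551 and 735. All 25 of the strongest members ranked at 117 or better in replicate 2 and at 114 or better in replicate 3. They covered genes of several roles.

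Among these 25, RNA-related genes included Cpsf5, a factor of pre-mRNA cleavage and polyadenylation (477 in replicate 2 and 687 in replicate 3, 18 bp downstream of its TSS), and Trf4-1, a noncanonical poly(A) polymerase (225 and 310 in replicates 2 and 3). Not1, the scaffold of the CCR4-NOT deadenylase, had 201.2 and 276 in replicates 2 and 3. Translation was represented by ThrRS, the threonyl-tRNA synthetase gene, which shares a peak with Patsas (353 in replicate 2 and 543 in replicate 3), and by mRpS10 and mRpS23. The transcription and chromatin genes Ssl1, of the TFIIH complex, and Chro, a chromodomain protein, shared a peak with 208 in replicate 2 and 336 in replicate 3. Membrane traffic was represented by Arl5, a small GTPase (401.4 and 565 in replicates 2 and 3), and by CHMP2B, of the ESCRT-III complex, paired with Tcs5 (162 and 325). The sex determination factor gene her, paired with the channel gene Trpgamma, had 249 in replicate 2 and 492 in replicate 3. The pooled signals of the 25 ran from 469 to 2130.

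Over all members the pooled signal ran from 122 to 2130 with a median of 176 (quartiles 144 and 250). The median was 159 at other promoter peaks, 168 at IDR peaks outside promoters and 49.5 at the 2988 weaker pooled peaks of divergent promoters. The lowest signal in the IDR set was 121.7 and the highest at the weaker divergent peaks 121.4. The set thus works as a cutoff on this signal, from which the gap to the weaker peaks follows. Above the median signal of the IDR set, or at it, lay 175 of 316 members (55.4%, 49.7 to 60.9%) and 188 of 417 other promoter peaks (45.1%, 40.2 to 50%), a difference of 10.3 percentage points (two-sided Fisher's exact test over peaks, adjusted p = 0.0162 over 5 tests). With only peaks at the paired start sites themselves counted as members, the difference was 9.06 points and no longer passed (Fisher's exact adjusted p = 0.0519). Over the other 5 alternatives it was 8.40 to 11.2 points (Fisher's exact adjusted p 0.0119 to 0.0372). Against the peaks outside promoters, of which 574 of 1141 (50.3%) lay above the median or at it, the difference of 5.07 points did not pass (Fisher's exact adjusted p = 0.187). Fisher's test counts peaks of 1 pooled list, not samples, so its p-values cover the counting of peaks only. For signal it uses the same values as the cutoff, so it describes only how peaks above the cutoff are spread.

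**Figure D1:**
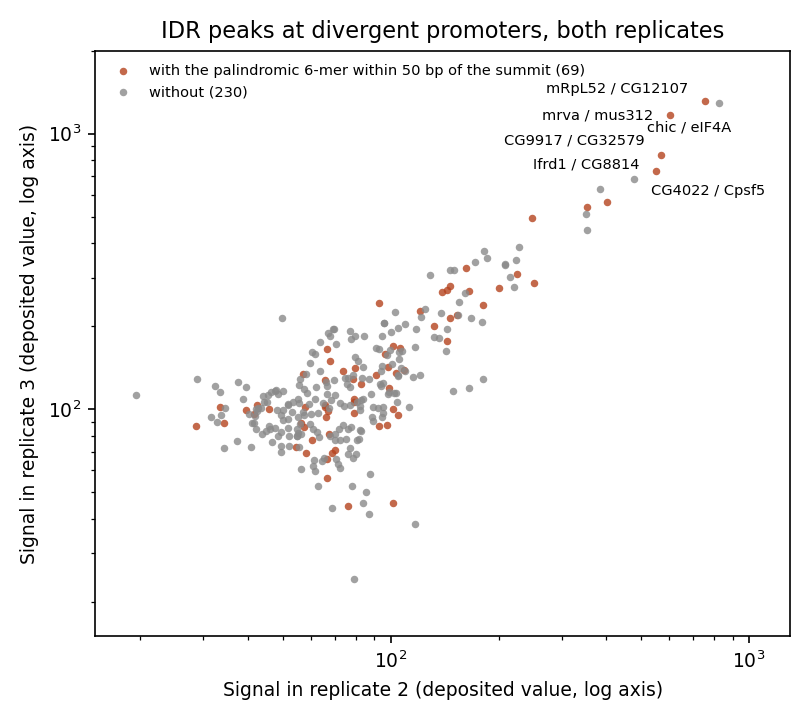
Signal of each member in replicate 2 (x axis) and replicate 3 (y axis), the deposited values on log axes, for the 299 members with a summit within 100 bp in both lists; red points hold the palindromic 6-mer within 50 bp of the summit (69) and grey points do not (230). The strongest members stand at the upper right in both replicates and 11 of the 25 strongest are red.

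A summit within 100 bp was found in replicate 2 for 303 members and in replicate 3 for 312, and in both for 299 of 316 (94.6%, 91.5 to 96.8%). The share was 92.3% (385 of 417) for other promoter peaks and 94.7% (1080 of 1141) for peaks outside promoters, and neither difference passed Fisher's exact test (2.29 points, adjusted p = 0.294, and -0.0335 points, adjusted p = 1). With a match within 50 bp both differences passed, at 9.25 points (78.8 against 69.5%, Fisher's exact adjusted p = 0.0108) and 5.97 points (Fisher's exact adjusted p = 0.044). Across the 299 members the signals of the replicates had a Spearman rho of 0.612 and, as log2 values, a Pearson r of 0.759. Across the 385 other promoter peaks these were 0.520 and 0.698, as a description over peaks that share libraries and control. A few members were uneven between the libraries. The peak at Trl, which encodes GAGA factor, had 19.5 in replicate 2 (rank 17741) and 113 in replicate 3 (rank 837). The peak at Frl, a formin gene, and CG13484 had 78.9 in replicate 2 (rank 738) and 24.1 in replicate 3 (rank 21112). The peak at C1GalTA, a glycosyltransferase gene, had 19.5 in replicate 2 and no matched summit in replicate 3.

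Most summits at a paired start site lay between 2 head-to-head start sites. Of the 316 members, 262 (82.9%) lay within 500 bp of the paired TSS themselves, 177 of them within 500 bp of both. The paired TSS of a member are the 2 that enclose its summit or else lie nearest to it. Other head-to-head start sites of the same genes can lie closer, as at smg, so the 177 can be too low. Of the 262 summits, 168 (64.1%, 58.0 to 69.9%) fell between the paired TSS, 47 downstream of the minus-strand TSS and 47 downstream of the plus-strand TSS. A summit counted as between where any head-to-head start sites of its genes enclosed it. Some of these therefore lay downstream of a nearer TSS, as at smg (17 bp) and Chro (72 bp), and not upstream of both genes. The stretches between the start sites are 31.1% of the bases in these windows. They held 150.97 IDR summits per Mb (168 in 1112778 bases), against 38.1 per Mb on the downstream sides (94 in 2463994 bases), a ratio of 3.96. At other promoters the upstream side held 53.8 summits per Mb and the downstream side 24.7, a ratio of 2.18. Bases between paired start sites lie upstream of those 2, though not of every TSS of the genes, so these ratios do not give binding per TSS. At other promoters 278 summits counted as upstream here, against 298 by the nearest TSS. Neither ratio assigns the side by the nearest TSS, the rules may differ between the 2, and the ratios were not tested.

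**Figure D2:**
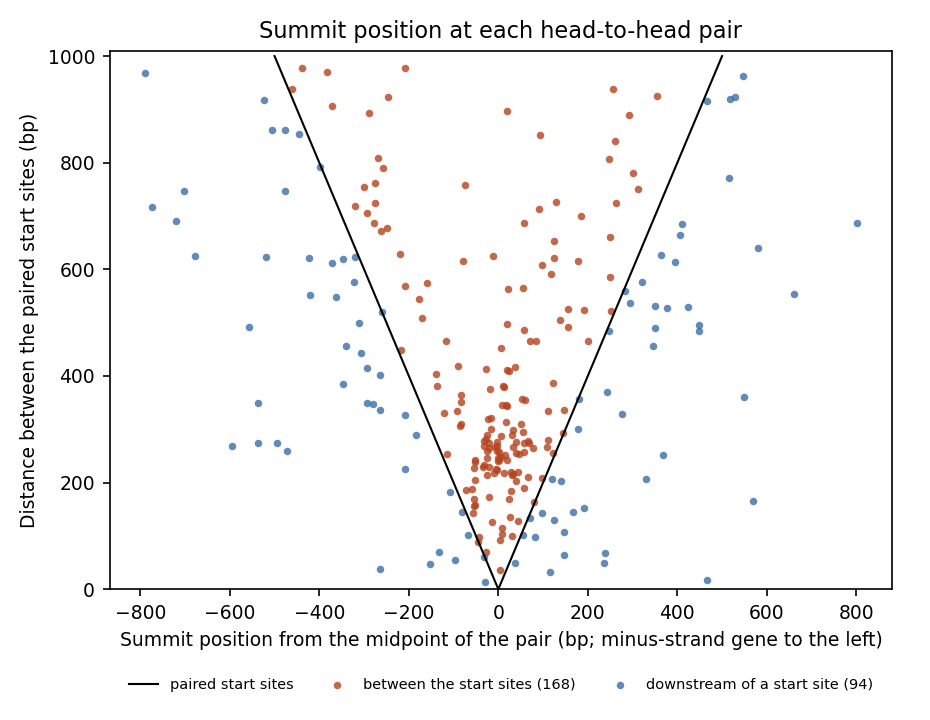
Position of the summit from the midpoint of its head-to-head pair (x axis, bp, minus-strand gene to the left) against the distance between the paired TSS (y axis, bp) for the 262 members at a paired TSS; black lines are the 2 start sites, red points lie between them (168) and blue points downstream of one (94). Red points gather near the midpoint at gaps under about 300 bp and lie nearer to one of the lines at wide gaps. The pair shown is the one that encloses the summit or else lies nearest to it.

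The density between paired start sites was highest from just over 50 to 150 bp from a TSS. It was 128 summits per Mb within 50 bp, 227 beyond that up to 100 bp, 213 up to 150 bp, 104 up to 250 bp and 51.8 up to 500 bp. Upstream of other promoters it was 77.1, 77.5, 87.7, 80.8 and 26.0 per Mb over the same distances. On the downstream side it fell with distance at both kinds, over the same steps 113, 101.2, 56.7, 20.3 and 13.8 per Mb at head-to-head pairs and 79.0, 55.1, 27.1, 12.4 and 8.77 per Mb at other promoters. The 168 summits between paired start sites lay a median of 98 bp (quartiles 61.8 and 136) from the nearer of the 2 start sites that enclosed them. A start site inside that stretch could lie closer, as at smg, with 17 bp to the nearest TSS and 212 bp by this measure. The same 168 summits lay a median of 57 bp (24.1 and 140) from the midpoint, and 96 of them (57.1%, 49.3 to 64.7%) fell in the inner 50% of the gap. The 94 downstream summits lay a median of 90.5 bp past the TSS. Of the 177 summits within 500 bp of both paired TSS, 53 (29.9%) were at nearly equal distance from both, within 50 bp, and the median difference of the 2 distances was 102 bp.

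**Figure D3:**
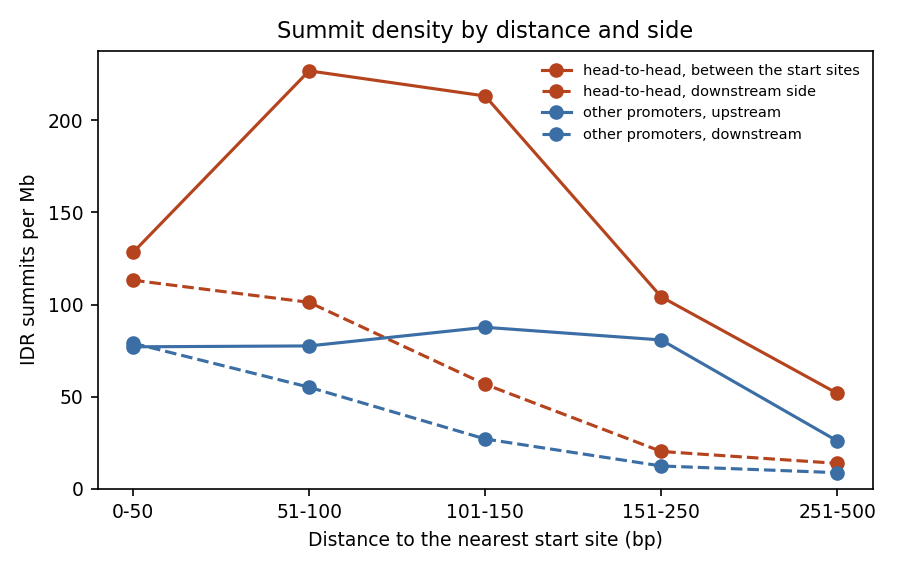
IDR summits per Mb (y axis, from 0) by distance to the nearest TSS (x axis, bp) between paired start sites and on their downstream side (red, solid and dashed), and upstream and downstream of other promoters (blue, solid and dashed). The line between paired start sites reaches 227 per Mb at 51 to 100 bp, above the 77.5 upstream of other promoters.

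By the nearest TSS, members lay upstream less often than other promoter peaks. Of 315 member summits not exactly on a TSS, 196 were upstream (62.2%, 56.6 to 67.6%), against 298 of 414 (72.0%, 67.4 to 76.3%) at other promoters, a difference of -9.76 points (two-sided Fisher's exact adjusted p = 0.0162). The call was lost with a promoter window of 250 bp (-8.98 points, Fisher's exact adjusted p = 0.0593) and with pairs at most 500 bp apart (-6.82 points, adjusted p = 0.127). Over the other 7 alternatives the difference was -9.57 to -13.6 points (Fisher's exact adjusted p 0.000978 to 0.0412). The median position was -51 bp (quartiles -119 and 54.75) for members and -96 bp (-211 and 14) for other promoter peaks. The upstream reach of a member is limited by its partner's TSS. Bases between paired start sites were 31.1% of the head-to-head windows, while upstream bases were 47.9% of those at other promoters. The test takes no account of this difference in room, so it does not show a weaker preference for the upstream side. By annotation, 116 member summits (36.7%) lay in a 5′ UTR, 118 between protein-coding genes, 80 in introns, 2 in coding exons and none in a 3′ UTR (exact upper limit 1.16%). Among other promoter peaks 117 (28.1%) lay in a 5′ UTR.

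Strong members were found on both sides of a start site. Of the 25 strongest, 21 lay at the paired TSS, 9 of them between the start sites and 12 downstream, and 12 of the 25 lay in a 5′ UTR. In the 106 strongest, the next 105 and the 105 weakest members by signal, the share between the start sites was 57.3, 72.0 and 63.7%, with overlapping intervals (46.4 to 67.7%, 60.9 to 81.3% and 53.0 to 73.6%).

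Of the 2667 head-to-head pairs in the annotation, 255 held an IDR summit no more than 500 bp from a paired TSS (9.56%, 8.47 to 10.7%). A further 785 (29.4%) had only a weaker pooled summit that was matched in both replicates, 866 (32.5%) had another weaker pooled summit, and 761 (28.5%) had none. By gap, the bound share was 9.07% of pairs with up to 100 bp between the start sites, 8.15% with more than that up to 200 bp, 12.0% up to 300 bp, 8.70% up to 500 bp and 9.52% up to 1000 bp, with overlapping intervals (9.38 to 15% for the highest and 5.52 to 11.5% for the lowest). The windows searched grow with the gap, from a mean of 1058 to 1707 bp, and per kb of window there were 0.0858, 0.0710, 0.0955, 0.0627 and 0.0558 bound pairs per pair over the same steps. The quartiles of the gap were 229.8 and 595.5 bp at members and 163 and 502 bp over all pairs. These are unlike measures. At members the gap is that of the start sites that enclose the summit or lie nearest to it, and over all pairs that of the 2 closest start sites. The member gap can therefore be the longer one for the same genes, so the quartiles do not show that bound pairs are wider. By the start sites so assigned to members, the shortest gaps were 14 bp at Ctu1, a tRNA modification gene, and CG8777 (signal 143 in replicate 2 and 272 in replicate 3), 17 bp at CG17266 and Rpp25, and 33 bp at Pex11ab, a peroxisome gene, and CG8320. Closer start sites of the same genes do not count here. At Ripalpha and RpL7 the assigned gap was 126 bp, though another RpL7 TSS lay closer to that of Ripalpha. Among the pooled peaks the divergent share of promoter peaks was 43.1% in the IDR set, 43.5% below it up to rank 5000, 43.7% from there up to rank 10000, 42.0% up to rank 20000 and 38.7% up to rank 30000.

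Just inside the 500 bp limit lay a peak at Sin3A, a corepressor gene (-500 bp, pooled signal 164), and one at Sarm (-489 bp, 417). Both were at another TSS of the gene, 3265 and 6575 bp outside the pair. Just outside it lay peaks at Akap200 (-528 bp, 143) and Ras85D (542 bp, 315). The pairs just over the limit of 1000 bp were at CG11961 (gap 1007 bp, signal 176) and Ptp4E (1023 bp, 163). Pax, which encodes paxillin, with its neighbour Alp12, and Diap1, the apoptosis inhibitor gene, with Mbs, a myosin phosphatase gene, had 3 members each. Those at Diap1 and Mbs had pooled signals of 207, 151.4 and 136, and the weakest of them had no matched summit in replicate 2. Only the strongest of these lay at a paired TSS. The others lay at other Diap1 start sites, 4190 and 572 bp outside the pair in the same order. The strongest member at Pax and Alp12 also lay outside its pair, by 517 bp. On 5 intervals 2 members each had their own summits, so 10 members share an interval.

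Cytoplasmic ribosomal protein genes gave the most bound genes of the 19 lists examined. Of 93 such genes, 56 have a head-to-head partner, and 25 of these 56 were bound (44.6%, 31.3 to 58.5%), against 477 of all 5052 protein-coding genes with a partner (9.44%) and 881 of all 13945 (6.32%). Bound means an IDR summit within 500 bp of any TSS. A single summit can count for both genes of a pair: 316 members gave the 477 genes, and 177 members lay within 500 bp of both paired TSS. The share for genes with a partner is thus raised by this counting and is not a share per peak. Among the 37 ribosomal protein genes with no partner, 13 were bound. At RpL7 the peak had 100 in replicate 2 and 191 in replicate 3, with the summit 18 bp downstream of its TSS. At RpL13, whose partner is Dref, it had 98.0 and 157 in replicates 2 and 3, with the summit 5 bp from the RpL13 TSS and 106 bp from that of Dref. The summit lay nearer to the ribosomal protein gene's TSS in 24 of 25 pairs, with RpS25 as the exception (129 bp, against 119 bp to CG4820). The median distance was 21 bp to the ribosomal protein gene and 249 bp to the partner, and 17 of the 25 were within 50 bp of the ribosomal protein gene. A member needs to be near only 1 of its genes, so some partners lie far away. The pooled signals of the 25 peaks ran from 122 to 276, below the strongest members. Some were uneven between the libraries. RpL34a had no matched summit in replicate 2, and RpL8 and RpS6 were at ranks 8286 and 6167 there, against 610 and 1417 in replicate 3. The list holds near-identical copies such as RpL34a and RpL34b, and how reads that match both were handled is not given in the sources used here.

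**Figure D4:**
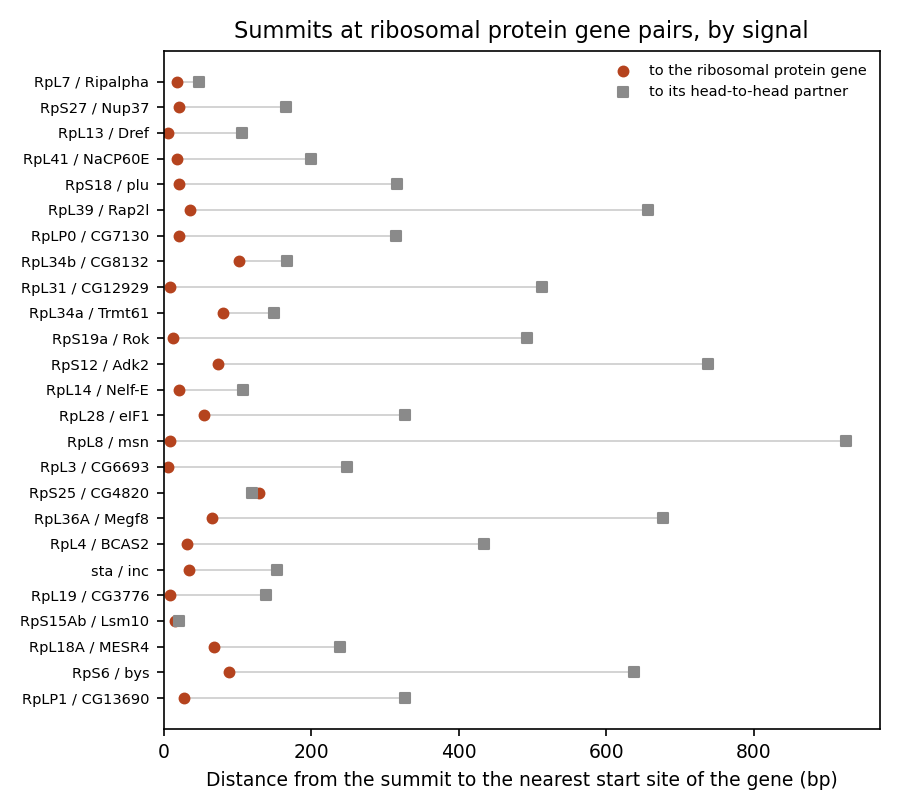
Distance (x axis, bp) from the summit to the nearest TSS of the ribosomal protein gene (red circles) and of its head-to-head partner (grey squares) for the 25 bound ribosomal protein genes, strongest peak at the top. The red circles lie left of the grey squares in 24 of the 25 rows, the exception being RpS25.

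The other lists of general functions were bound at shares nearer to the 9.44% of all genes with a partner. Mitochondrial ribosomal protein genes had 8 of 59 bound (13.6%, 6.04 to 25%), with mRpL52, mRpS10 and mRpS23 the strongest. Translation factors had 4 of 28, led by eIF4EHP, a cap-binding protein gene (131 in replicate 2, no matched summit in replicate 3). Splicing factors had 3 of 33 (SmD3, Prp3 and U2af50), pre-mRNA 3′ end processing 2 of 11 (Cpsf5 and Cpsf100), the transcription machinery 5 of 58, replication and cell cycle 4 of 31, DNA repair 3 of 25, nuclear pore genes 2 of 19 and vesicle traffic 8 of 75, led by Arl5 and Rab5. The transcription list as drawn up counts Trf4-1, the poly(A) polymerase gene above, among its 5. Oxidative phosphorylation had 3 of 44, aminoacyl-tRNA synthetases 1 of 23 (ThrRS), and the proteasome 0 of 26 (exact upper limit 13.2%), as had mitochondrial import with 0 of 6. Chromatin architecture and insulator genes had 5 of 19 (26.3%, 9.15 to 51.2%): Chro, Dref, Cp190, SMC6 and Trl. Polycomb and Trithorax group genes had 3 of 15, namely E(z), skd and brm.

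The developmental lists were small. Over all protein-coding genes 5052 of 13945 have a partner. Bound were 477 of these 5052 (9.44%) and 881 of all 13945 (6.32%), which covers genes with and without a partner. None of 25 segmentation genes has a partner, and 7 of them were bound, all outside the members. Of 23 genes of Notch signalling and the E(spl) complex, 7 have a partner and 4 of these were bound, as were 5 of the 16 without a partner. Those with a partner are E(spl)mdelta-HLH, a target of the pathway (77.6 in replicate 2 and 179 in replicate 3), the ubiquitin ligase gene neur, the kinase gene aPKC and the coactivator gene mam. In the dorsal-ventral list 3 of 29 have a partner and 2 of these were bound, stumps, of FGF signalling, and the muscle factor gene Mef2, as were 9 of the 26 without a partner. The summits at neur, aPKC and stumps lay at other start sites of these genes, 5688, 11814 and 14127 bp outside the pair. With so few genes the intervals are wide (18.4 to 90.1% for the Notch list). No list was tested here.

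Member windows were rich in A and T. In windows that reach 50 bp to either side of the summit the median GC content was 36.1% at members, against 41.6% at other promoter peaks, 38.6% at IDR peaks outside promoters, 42.6% at weaker pooled peaks of divergent promoters and 31.7% at the midpoints of all head-to-head pairs. Searched on both strands, TAATTA lay in 69 of 316 member windows (21.8%, 17.4 to 26.8%). It lay in 12.7% of windows at other promoter peaks, 18.5% at peaks outside promoters, 7.90% at weaker divergent peaks, 11.3% at pair midpoints and 5.24% of 19607 promoter windows of the same length. Its ratio of members to weaker divergent peaks was 2.76. The letters were chosen after seeing these data and this is a description.

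The letters were picked for their share within 50 bp of the summit, so the values there describe that choice. In 51 bp windows TAATTA was found in 14.6% of members at the summit, where the median GC content was 35.3%, and in 8.86% at 50 bp to either side. It was found in 2.53% at 100 bp to either side, where the median GC content was 43.1%, and farther out, up to 400 bp, in 1.27 to 5.38%. At other promoter peaks the share at the summit was 6.71%, and at weaker divergent peaks 4.48%. Of the 106 strongest members 28.3% held it, of the next 105 20%, and of the 105 weakest 17.1%, with overlapping intervals (20 to 37.9%, 12.8 to 28.9% and 10.5 to 25.7%). The median GC content of these windows was 33.7, 35.6 and 39.6% in the same order. Of the 25 strongest, 11 held it (44%, 24.4 to 65.1%). By position, 27.7% of downstream summits held it and 19.0% of those between the paired start sites. The strongest 1874 peaks of each replicate alone gave 21.9% of 343 divergent peaks in replicate 2 and 20.7% of 334 in replicate 3, with 10.2 and 13.4% at other promoters. Only 1 of the 25 ribosomal protein members held it, at RpS15Ab, and their median GC content was 44.6%.

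Base composition moved with this share. In windows under 30% GC, TAATTA was in 26.9% of members, 26.6% of other promoter peaks and 23.2% of weaker divergent peaks. In windows of 40 to 45% GC it was in 34.1% of members (20.1 to 50.6%, 14 of 41), 13.7% of other promoter peaks and 5.74% of weaker divergent peaks, and above 45% in 13.2, 5.16 and 1.80%. In windows of 30 to 35% GC it was in 18.2, 12.2 and 13.7%, and of 35 to 40% in 17.6, 13.1 and 8.49%, in the same order. The part of base composition in the pooled shares was not tested further.

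**Figure D5:**
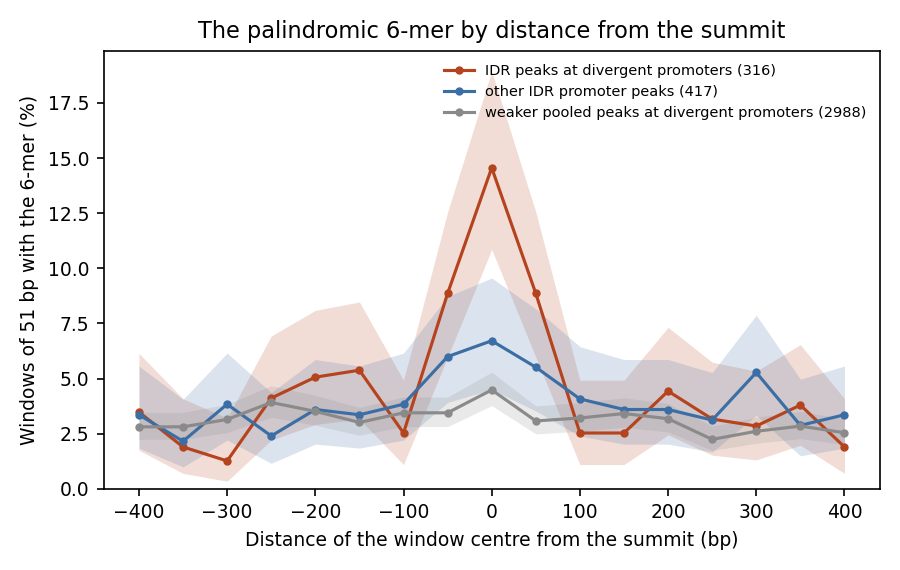
Share of 51 bp windows with the palindromic 6-mer (y axis, %) by distance of the window centre from the summit (x axis, bp) at members (red, 316), other IDR promoter peaks (blue, 417) and weaker pooled peaks of divergent promoters (grey, 2988); bands are exact 95% binomial intervals. The members are at 14.6% at the summit, at 2.53% at 100 bp to either side and between 1.27 and 5.38% farther out.

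For reference, 15 consensus sequences were searched on both strands in the same windows. The DRE (TATCGATA) lay in 4.43% of member windows (2.44 to 7.32%), 2.64% at other promoter peaks, 3.25% at weaker divergent peaks, 4.87% at pair midpoints and 5.19% of all promoter windows. At peaks outside promoters it lay in 0.175%. The GAGA sequence (GAGAG), which the Trl product binds, lay in 12.3% of member windows (8.93 to 16.5%) and 19.4% (15.7 to 23.6%) at other promoter peaks. It lay in 13.4% at weaker divergent peaks, 7.69% at pair midpoints and 15.3% of all promoter windows. TATAAA lay in 21.8% of member windows, 15.8% at other promoter peaks and 18.1% of all promoter windows. At weaker divergent peaks it lay in 12.4% and at pair midpoints in 22.7%, close to the members. The TCT initiator letters CTCTTT lay in 9.49% of member windows, 10.1% at other promoter peaks, 9.64% at peaks outside promoters and 7.21% of all promoter windows, and the Zelda letters CAGGTA in 1.58 and 2.24%. The CGATA core overlaps the DRE and lay in 22.8% of member windows and 26.1% of all promoter windows. No match shows that a factor was bound.

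By chromosome arm, the share of head-to-head pairs with an IDR summit was 9.82% on 2L, 10.7% on 2R, 11.8% on 3L and 10.1% on 3R. On X it was 4.22% (17 of 403, 2.48 to 6.67%), an interval that overlapped none of those of these 4 arms. X also held a low part of the whole IDR set, 177 of 1874 peaks (9.45%), against 15.1% of all head-to-head pairs. On chromosome 4 none of 11 pairs had one. Among noncoding genes, a tRNA gene start was near 2 of 316 members (0.633%), against 5 of 417 other promoter peaks (1.20%). These 2 lay near tRNA:Leu-TAA-2-1 and near tRNA:Trp-CCA-2-2 and tRNA:Gly-GCC-1-9. A snoRNA gene start was near 5 members (1.58%), against 4 other promoter peaks (0.959%), and that of another noncoding RNA gene near 8 members (2.53%), against 22 other promoter peaks (5.28%).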

How the data were processed

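The samples were ChIP-seq libraries of replicates 2 and 3. Per the deposited list of files, the authors called peaks from each replicate and from both combined with 1 shared control alignment (dm6), and took the IDR set from those calls. For the aligner, the caller, their versions and the IDR cutoff, details were not given in the sources used here. Signal, as deposited, is the caller's value per peak against the control. The deposited −log10 q value is capped at 3.56, which 1810 IDR peaks share, so it was not used for ranking. The pooled list and the list of each replicate hold 30000 peaks each, which is no measure of depth. Data of the control library itself were not analysed here.

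Summits were compared with the Ensembl release 115 annotation (FlyBase 6.54) and the RefSeq Release 6 genome on the 6 main arms. Sequences were read from that genome. Shares have exact (Clopper-Pearson) 95% intervals, and 5 two-sided Fisher's exact tests over peaks were adjusted by the Benjamini-Hochberg method at 0.05. Members, tests, 19 gene lists and 15 consensus sequences were chosen with earlier results of these data known. Named genes are those at the 25 strongest members, up to 3 per list, those with 3 or more members, those at the limits, the shortest gaps, and members at ranks over 10000 in a replicate; other genes are named to account for small counts. Of the stretches the rule allows, 3 are printed, and these and the TAATTA sites were chosen after values were seen. Alternatives were other windows, gaps, start site rules, parts of the IDR set, each replicate alone and other match distances. The code was tested on simulated data. SciPy 1.17.1 and pandas 2.3.3 were used with NumPy 2.4.6 in Python 3.11.15, and figures were drawn with matplotlib 3.10.9.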

Additional observations from a re-analysis of the deposited data

How the results depend on the processing

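With a promoter window of 250 bp, 8.44% of head-to-head pairs were bound, and the upstream difference from other promoter peaks was -8.98 points, which no longer passed (Fisher's exact adjusted p = 0.0593). With a window of 1000 bp, 10.9% of pairs were bound and 54.5% of summits lay between the paired start sites. With pairs at most 500 bp apart, the upstream difference was -6.82 points (Fisher's exact adjusted p = 0.127). With the paired start sites only, the difference in the share above the median signal was 9.06 points (Fisher's exact adjusted p = 0.0519). With only IDR peaks at or above the median signal, 175 were members and 5.36% of pairs were bound, by construction, since fewer peaks were counted. The difference from peaks outside promoters in the share matched in both replicates, -0.0335 points, became 0.8 and 0.288 with windows of 250 and 1000 bp, 0.763 with pairs at most 500 bp apart, 0.0027 with paired start sites only and 0.083 with start sites in either arrangement. With a match within 50 bp it was 5.97 points (Fisher's exact adjusted p = 0.044). The difference from other promoter peaks in that share was 9.25 points within 50 bp (Fisher's exact adjusted p = 0.0108) and -0.46 within 200 bp. In windows that reach 30 and 100 bp to either side of the summit, the DRE lay in 2.22 and 8.23% of members and TAATTA in 17.1 and 32.6%, and shorter windows hold fewer matches by construction. For the other changes the cause was not tested.

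From the strongest peaks of 1 replicate alone, without replicate 2 and without replicate 3 in that order, members numbered 334 and 343, 62.4 and 60.6% of summits lay between the paired start sites, 10.2 and 9.94% of pairs were bound and the upstream difference was -11.8 and -12.1 points. No paired analysis was possible because the samples form 1 group. Read depth is unknown, so the precision of a single peak cannot be given, and with 1 control for both replicates, binding and a deviation of that control cannot be told apart. Whole embryos mix cell types.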
